A study of Mus musculus with 5 samples.

Results

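The genes described here are the 8 mouse genes of the major histocompatibility complex (MHC) class II presentation pathway, Cd74, H2-Aa, H2-Ab1, H2-Eb1, H2-DMa, H2-DMb1, H2-DMb2 and Ciita, taken as 8 of the 27998 genes in each of 5 single-cell count tables. They were chosen by name for their place in the pathway, with earlier results of these data known. The libraries came from mice of the Nes-GFP strain, 3 from young animals of 10 to 12 weeks (young replicates 1, 2 and 3) and 2 from animals of over 20 months (aged replicates 2 and 3). Cells of the marrow next to bone, sorted as negative for the leukocyte protein CD45 and positive for the endothelial protein CD31, were frozen, thawed and run on droplets that tag each RNA molecule near its 3′ end with a unique molecular identifier (UMI). The labels do not say whether a library held 1 animal or a pool, so the p-values measure the spread between these libraries only. Although the cells are labelled endothelial, 1908 of the 2116 cells kept lay in 7 clusters led by B-lineage or cell cycle genes. Another 23 formed an endothelial-like cluster. There each of the 11 endothelial markers was seen in at least 10% of cells, and Ptprc, which encodes CD45, in under 10%.

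MHC class II molecules are pairs of an alpha and a beta chain that carry peptides from the endosome to the cell surface for CD4 T cells. The invariant chain, encoded by Cd74, holds newly made pairs together and fills their groove until it is cut down to a fragment that the DM proteins exchange for peptide. In the B lineage these genes come on during development in the marrow, under the coactivator encoded by Ciita, which acts with factors bound to a shared set of promoter boxes.

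In GENCODE M21 on GRCm38, 6 of the members lie on chromosome 17. H2-DMa, the DM alpha chain, spans chr17:34119541-34139101. The DM beta chain genes H2-DMb2 and H2-DMb1 follow at chr17:34143307-34151555 and chr17:34153072-34160230. H2-Ab1, the beta chain of the A molecule, spans chr17:34257689-34269419, and H2-Aa, its alpha chain, chr17:34282744-34287823 on the minus strand. H2-Eb1, the beta chain of the E molecule, spans chr17:34305867-34316674. Ciita lies at chr16:10480059-10528418. Except for H2-Aa, the members lie on the plus strand. H2-DMa overlaps Brd2, H2-Eb1 overlaps Gm20513 and Ciita overlaps Dexi, each on the opposite strand, H2-DMa and Cd74 also overlap CR974462.3 and Mir5107 on their own strand, and strand use in counting is not given in the sources used here. Transcripts of H2-DMb1 and H2-DMb2 were 69.2% identical over their whole length and 66.0% over their last 300 bases, where these libraries read.

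The reference promoter table held windows for 5 of the 8 members, and the stretches upstream of the RefSeq starts (GRCm38.p6) of H2-Aa, H2-Eb1 and H2-DMb2 are shown because class II promoters are known for boxes at a fixed spacing and these members rose together in later B-lineage cells, H2-DMb2 only in a fit without the filter on low counts. Capitals mark 2 motifs searched on both strands: TGATTGG, which holds the inverted CCAAT letters of a Y box, and, of the X box type, AAC followed by any base and GATGATG. The motifs do not overlap. The stretches are chr17:34287824-34287973 (minus strand) for H2-Aa, chr17:34305717-34305866 (plus strand) for H2-Eb1 and chr17:34145099-34145235 (plus strand, inside the GENCODE span of the gene) for H2-DMb2, 5′ to 3′.
H2-Aa: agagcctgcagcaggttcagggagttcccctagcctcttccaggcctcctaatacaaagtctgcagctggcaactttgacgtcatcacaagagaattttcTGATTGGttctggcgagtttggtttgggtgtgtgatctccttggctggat
H2-Eb1: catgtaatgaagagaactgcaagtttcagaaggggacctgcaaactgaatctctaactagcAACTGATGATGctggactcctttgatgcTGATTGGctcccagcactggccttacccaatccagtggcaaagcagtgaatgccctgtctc
H2-DMb2: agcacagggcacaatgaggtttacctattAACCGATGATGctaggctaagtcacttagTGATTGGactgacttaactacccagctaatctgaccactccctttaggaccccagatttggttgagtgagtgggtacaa
Both motifs stood in the transcribed direction in H2-Eb1, H2-DMb1 and H2-DMb2, with 17 bases between them in H2-Eb1 and 18 in both DM beta genes. Of the 150 bases upstream of the H2-DMb1 start, 119 were annotated as exon. Both motifs of H2-DMb1, at -92 and -63 from that start, lay in this exon stretch. H2-Aa held TGATTGG alone. Neither window of H2-DMa held either motif, and the 150 bases upstream of its first start were 76.0% G and C. Among 32851 promoter windows of 300 bases, 7.82% held TGATTGG, 0.0609% held the X box type and 0.0213% held both. A match is a description of letters only.

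The libraries differed in depth and make-up. They held 935656 to 5900751 UMIs, and kept cells had medians of 1889.5 to 4212.5 UMIs. Barcode sequences found in more than 1 library numbered 26 before the cell filter and 5 after it. Young replicate 1 gave 524 of the 639 dividing B-lineage cells and 173 of the 185 myeloid cells. Replicate number went with sex-linked RNA: both libraries of replicate 2 held 0 Xist UMIs, and the others at least 1118. B-lineage cells were staged with genes outside the pathway. Non-dividing cells with a UMI of Vpreb1, Vpreb2, Igll1 or Dntt (surrogate light chain and recombination genes of early B-cell precursors) and none of Ms4a1, Cd2, Cd22 or Cd40 (surface genes of later cells) form the early gate, 412 cells. The reverse is the late gate, 400 cells, while 287 cells met both gates and 170 neither. A cell near a limit can fall on either side, since 65 early-gated and 129 late-gated cells had exactly 1 UMI of their gate genes.

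Cd74 and the 3 chain genes were higher in late-gated than in early-gated cells of every library. H2-DMa moved less, and H2-DMb1 and H2-DMb2 were too sparse to pass the filter on low counts. Values are CPM, the UMIs of a gene per 1000000 UMIs of the cells summed. Libraries are given in the order young replicate 1, young replicate 2, young replicate 3, aged replicate 2, aged replicate 3. Cd74, on chromosome 18, gave 272, 71.9, 597, 141 and 333 CPM in early-gated cells. In late-gated cells it gave 2725, 2273, 2208, 1359 and 2765. The lowest late value, that of aged replicate 2, exceeded the highest early value, that of young replicate 3. In edgeR's quasi-likelihood test with library as a block, Cd74 was 7.96-fold higher in late-gated cells, a log2 fold change of 2.99 ± 0.15 (SE, 5 libraries, Benjamini-Hochberg adjusted p = 3.8e-24).

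**Figure D1:**
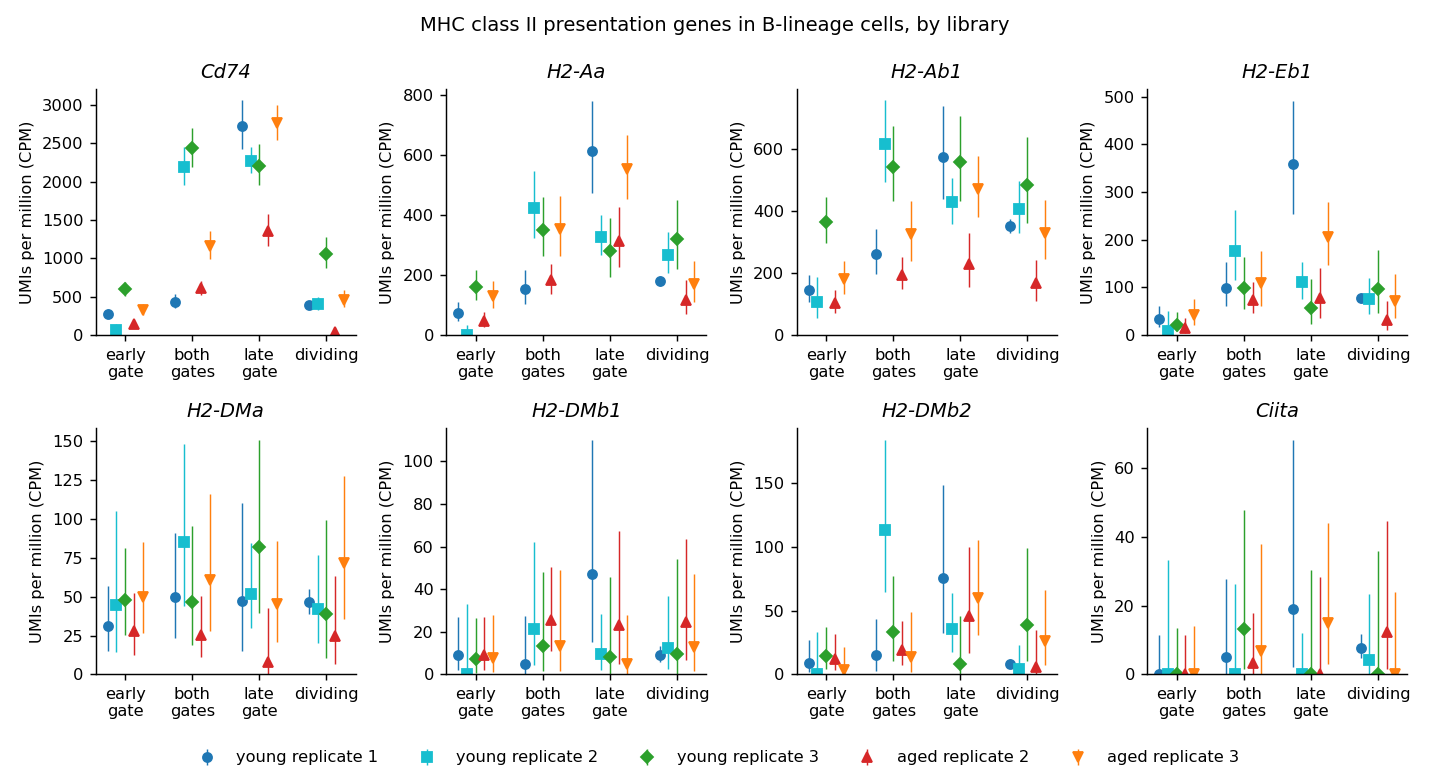
CPM of each member (vertical axes, linear, from 0) in early-gated, doubly gated, late-gated and dividing B-lineage cells, 1 point per library with its exact 95% Poisson interval. Cd74 in the late gate lies between 1359 and 2765 CPM, above every early-gate value, while Ciita stays at or near 0.

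The beta chain gene H2-Ab1 started from a higher base and rose less. Its early-gate levels were 145, 108, 366, 104 and 180 CPM in the same order, and its late-gate levels 575, 429, 558, 230 and 472 CPM. The gates overlapped across libraries, because young replicate 3 had more H2-Ab1 in the early gate than aged replicate 2 in the late gate, but within each of the 5 libraries the late gate was higher. The fitted rise was 2.50-fold (log2 fold change 1.32 ± 0.17 SE, edgeR adjusted p = 6.1e-09).

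Its partner, the alpha chain gene H2-Aa, gave 74.1, 0, 161, 46.0 and 130 CPM in the early gate and 613, 328, 279, 315 and 552 in the late gate. The gates did not overlap. The 0 came from the 29 early-gated cells of young replicate 2, the smallest sum. The fitted rise of H2-Aa was 4.77-fold (log2 fold change 2.26 ± 0.22 SE, edgeR adjusted p = 1.9e-12). H2-Eb1, the beta chain of the other class II molecule, stood at 9.0 to 42.1 CPM in the early gate and 57.5 to 358 in the late gate, again without overlap, a 6.0-fold rise (log2 fold change 2.59 ± 0.28 SE, adjusted p = 3.5e-11).

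**Figure D2:**
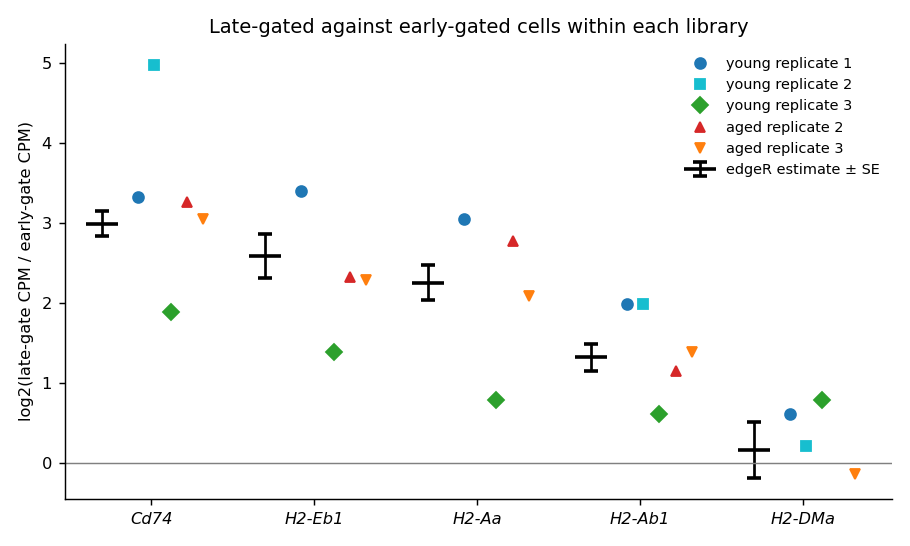
log2 ratio of late-gate to early-gate CPM within each library (coloured points, shown where both sums held over 3 UMIs) and the edgeR log2 fold change with its SE (black bars). Cd74, H2-Eb1, H2-Aa and H2-Ab1 lie above 0 in every library plotted, and H2-DMa lies on both sides of 0.

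Of the 5 members that passed the filter on low counts, 4 were called higher and none lower, where 12.5% of the 3475 genes tested were called higher. The members' median log2 fold change was 2.26 against -0.01 over all genes tested. The smallest rise of each of the 4 genes came from young replicate 3, where Cd74 was 3.70-fold and H2-Aa 1.73-fold higher. All 4 calls held under each of 13 alternative settings (11 for H2-Eb1, which 2 settings did not test).

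Markers of other presenting cells were also counted. Of 12 dendritic markers, 4 were detected in the late gate (Bst2, Cox6a2, Flt3 and Ccr9). Their sum was 66.0 to 140 CPM over the libraries against 52.2 to 108 in the early gate, higher in the late gate in 4 of 5 libraries. The markers did not move together. Cox6a2 gave 45 UMIs in the late gate and 14 in the early gate, but Bst2 gave 24 and 79. Flt3 gave 7 and 11, and Ccr9 2 and 0. Siglech, Itgax, Xcr1, Clec9a, Zbtb46 and Cd209a were at 0 UMIs in both gates. Of 12 monocyte and macrophage markers 4 were detected in the late gate, at 5.0 to 28.3 CPM in sum against 49.1 to 117 in the early gate, and Csf1r was at 0. The part of such cells in the rises was not tested.

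The genes that edit the peptide groove did not follow as a group. H2-DMa, the alpha chain of the exchange factor DM, gave 27.6 to 49.8 CPM in the early gate and 7.7 to 82.1 in the late gate, higher in 3 libraries and lower in 2. Its log2 fold change was 0.16 ± 0.35 (SE, edgeR adjusted p = 0.79). H2-DMb1 and H2-DMb2, the DM beta chains, and Ciita held too few UMIs to pass the filter. H2-DMb2 rested on 12 early-gate and 38 late-gate UMIs and was higher in 4 libraries and lower in young replicate 3. In a fit without the filter it was called higher (log2 fold change 2.24 ± 0.48, edgeR adjusted p = 0.00014). H2-DMb1 had 10 and 13 UMIs. Ciita gave 0 UMIs in the early gate and 5 in the late gate, so no rise of the coactivator's own transcript was detectable at this depth.

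Cd74 per H2-Ab1 was higher in the late gate of each library, a difference that the exact test over 5 libraries cannot call. Ratios of Cd74 to the other chains were not tested. Droplet libraries of this kind count 1 UMI per captured molecule whatever the length of the transcript, but capture may differ between genes, so a ratio is compared between cells and not read as a ratio of proteins. In the early gate there were 1.87, 0.67, 1.63, 1.35 and 1.85 Cd74 UMIs per H2-Ab1 UMI, in the same order of libraries. In the late gate the ratio was 4.74, 5.30, 3.96, 5.90 and 5.86. All late values exceeded all early values, and the mean within-library change was 3.68-fold (log2 1.88 ± 0.71 SD, n = 5 libraries, exact two-sided sign permutation test p = 0.0625, the smallest that 5 libraries allow, Benjamini-Hochberg adjusted p = 0.125 over 4 such ratios). H2-Aa per H2-Ab1 went from 0.49 over all early-gated cells to 0.91 over all late-gated cells and rose in the 4 libraries where it could be computed (exact permutation p = 0.125, adjusted p = 0.167, n = 4). Cells that met both gates lay between, at 3.41 Cd74 UMIs per H2-Ab1 UMI over the 5 libraries together.

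Dividing B-lineage cells had lower ratios than non-dividing ones. They held 1.13, 0.99, 2.18, 0.26 and 1.39 Cd74 UMIs per H2-Ab1 UMI, below the non-dividing cells of the same library in 5 of 5 cases. Young replicate 3 (95% interval 1.55 to 3.11) and aged replicate 2 (0.095 to 0.61) stood apart from each other. The mean within-library difference was 3.71-fold (log2 -1.89 ± 1.14 SD, n = 5, exact permutation p = 0.0625, adjusted p = 0.125). The mix of gates differed between dividing and non-dividing cells. Among dividing cells that met the late gate the ratio was 1.14 in young replicate 1 (118 cells, 95% interval 0.96 to 1.36), against 4.74 in that library's non-dividing late-gated cells. Young replicates 2 and 3 and aged replicate 3 gave 1.11 to 1.33 from 3 to 5 such cells each, and the single such cell of aged replicate 2 held no UMI of either gene, so this value rests on young replicate 1. The part of the gate mix in the other libraries was not tested.

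**Figure D3:**
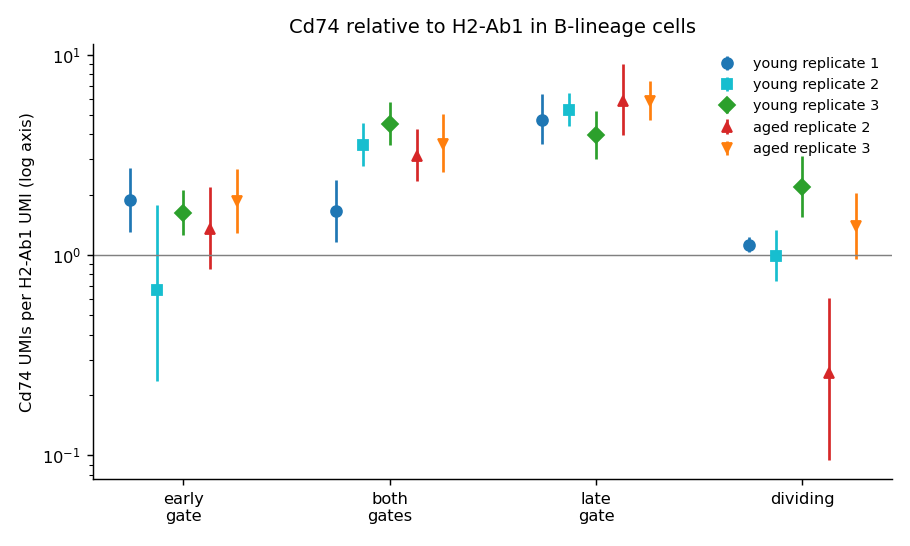
Cd74 UMIs per H2-Ab1 UMI (log axis, with exact 95% intervals) by library in early-gated, doubly gated and late-gated non-dividing cells and in all dividing B-lineage cells. Late-gate ratios lie between 3.96 and 5.90 and dividing ratios between 0.26 and 2.18.

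Levels in dividing cells were set beside non-dividing cells that met the same early gate. The gate asks only for a UMI of an early gene and none of a late gene. Levels of stage genes and depth were therefore not matched. The fit used 4 libraries, because young replicate 2 had only 4 dividing early-gated cells. Cd74 gave 273 CPM in dividing against 272 in non-dividing cells of young replicate 1, 338 against 597 in young replicate 3, 9.9 against 141 in aged replicate 2 and 178 against 333 in aged replicate 3. It was about level in the library with most dividing cells and lower in the other 3. The 4 cells of young replicate 2, outside the fit, gave 292 CPM from 13 UMIs, above that library's 71.9. The log2 fold change was -0.70 ± 0.30 (SE, edgeR adjusted p = 0.13), and without young replicate 1 it was -1.21 with an adjusted p of 0.022.

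None of the 4 members tested in this comparison was called, where 8.84% of 3971 genes were called higher and 5.39% lower (14.2% in all). H2-Ab1 had a log2 fold change of 0.25 ± 0.27 (adjusted p = 0.61), from 254 against 145 CPM in young replicate 1, 203 against 366 in young replicate 3, 119 against 104 in aged replicate 2 and 228 against 180 in aged replicate 3. H2-Aa had 0.28 ± 0.32 (adjusted p = 0.65) and H2-DMa 0.00 ± 0.40 (adjusted p = 1.0). The signs of H2-Aa and H2-Ab1 turned without young replicate 1, and H2-DMa changed sign with the scaling. Ciita was seen more often here than in resting cells, with 25 UMIs over all dividing B-lineage cells (7.1 CPM) and 12 over all non-dividing ones (3.5 CPM), but 22 of the 25 came from young replicate 1, and the difference was not tested.

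Cd74 UMIs were spread unevenly over cells. After each cell was thinned to 1000 UMIs, 43.0% of the 400 late-gated cells held a Cd74 UMI (95% Clopper-Pearson interval 38.1 to 48.0, counting error only), against 13.6% (10.4 to 17.3) of early-gated cells. Without thinning the shares were 55.0% and 26.9%, and a cell with no UMI may still express the gene. In the late gate 19.5% of cells held at least 3 Cd74 UMIs and 5.0% at least 10, with a maximum of 41, and the top 10% of cells held 64.9% of the UMIs. Granule-gene-rich myeloid cells, which should hold little Cd74, had a UMI in 4.17% of cases (1.15 to 10.3). These cells were themselves taken for having under 10 Cd74 UMIs without thinning. Dividing cells held a Cd74 UMI in 26.9% of cases and at most 9 UMIs in a cell. H2-Ab1 was seen in more dividing cells (28.8%) than late-gated cells (18.5%), although its level in CPM was lower in dividing cells (350 against 445), so no order is read from the shares.

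**Figure D4:**
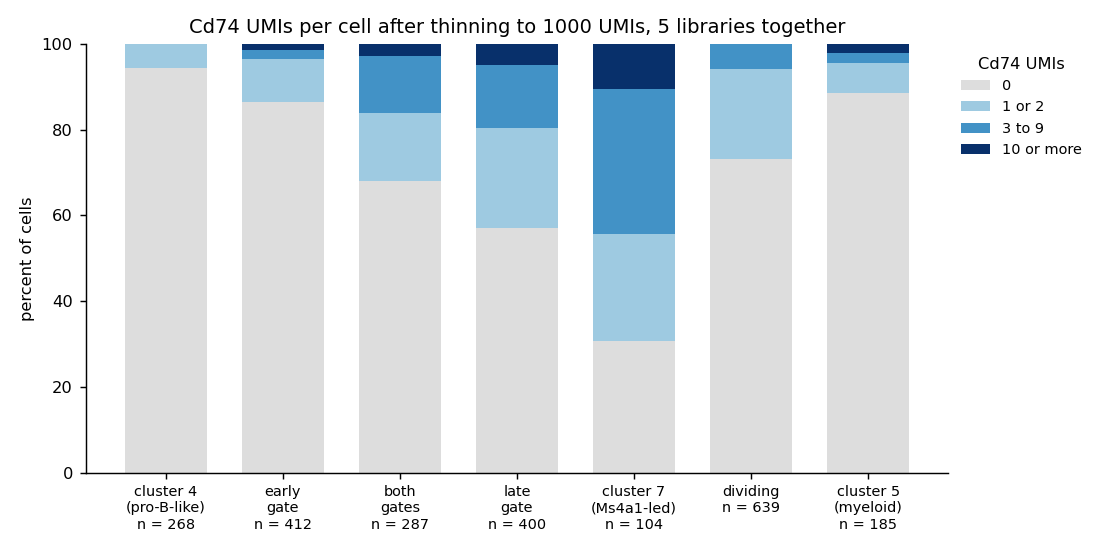
Percent of cells (bars, from 0 to 100) with 0, 1 or 2, 3 to 9, and 10 or more Cd74 UMIs after thinning to 1000 UMIs, over the 5 libraries together. Cells with 10 or more Cd74 UMIs make up 5.0% of the late gate and are absent from cluster 4 and from dividing cells.

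The chain genes, H2-DMa and H2-DMb2 were higher in the late-gated cells that held most Cd74. The 78 cells with at least 3 Cd74 UMIs at this fixed depth gave 1252 CPM of H2-Aa, 1534 of H2-Ab1 and 538 of H2-Eb1, and the 228 cells with none gave 91.3, 93.4 and 25.5. The DM genes followed, with 139 against 12.7 CPM for H2-DMa and 160 against 8.5 for H2-DMb2, from 26 and 30 UMIs in the Cd74-rich cells. H2-DMb1 rested on 8 UMIs against 2 (42.6 against 4.2 CPM). In aged replicate 2 H2-DMa gave 0 UMIs in both sets, and in young replicate 3 H2-DMb2 gave 1 against 0. Ciita had 0 UMIs in the Cd74-rich cells and 4 in those without, 3 of them from aged replicate 3, too few to give a direction. H2-Ab1 was higher in the Cd74-rich cells of all 5 libraries, from 954 against 311 CPM in young replicate 1 to 2200 against 101 in aged replicate 3. Both sets of cells had similar depth, with medians of 2253.5 and 2012 UMIs. Since the split was made on Cd74, these values are a description.

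Within the late gate, Cd74 was highest in cells with Ms4a1, the gene of the surface protein CD20. The 70 cells with an Ms4a1 UMI gave 5124 CPM of Cd74, and the 309 cells with Cd2 and no Ms4a1 gave 1717. In young replicates 1, 2 and 3 and aged replicate 3 the pairs were 6784 and 1113, 3397 and 1940, 4881 and 1977, and 8115 and 1703. Aged replicate 2 had only 2 cells with Ms4a1, and neither held Cd74. The balance with H2-Ab1 also differed, at 7.52 Cd74 UMIs per H2-Ab1 UMI with Ms4a1 and 4.24 without, and the 8 such cells of young replicate 3 held 64 Cd74 UMIs but none of H2-Aa or H2-Ab1. Cells with Cd2 and no Ms4a1 therefore carried Cd74 at 1113 to 1977 CPM in every library, above all early-gate values.

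Clusters, built without the class II genes, gave the same order as a description. Over the 5 libraries together, Cd74 was highest in cluster 7, led by Ms4a1 (4311 CPM), then in cluster 3, whose leading genes also included Tnfrsf13c and Cd72 (2263 CPM), and cluster 1, led by Cd2 (1409 CPM). The 2 dividing clusters gave 530 CPM in cluster 0 (chromosome segregation genes) and 276 in cluster 2 (DNA replication genes), and cluster 6, with Rag2 among its leading genes, gave 321. Cluster 4, pro-B-like with all 9 early markers detected, was lowest at 54.8 CPM, with library values of 11.8 to 95.2. The library ranges of neighbouring clusters in this order overlapped, and each of the 7 drew most of its cells from 1 library or from libraries of 1 replicate number.

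Over the libraries together, cluster 4 held fewer Cd74 than H2-Ab1 UMIs, 45 against 68, a ratio of 0.66, and the other 6 B-lineage clusters held more. By library, cluster 4 held more Cd74 in young replicate 1 (10 against 6), and cluster 2 held less in young replicates 1 and 2 and aged replicate 2. Cluster 0 held less in young replicate 3 (1 against 3) and aged replicate 2 (1 against 7), and cluster 6 in young replicate 3 (1 against 2). The counts were equal, at 1 each, in cluster 6 of young replicate 2 and cluster 3 of young replicate 1. In cluster 4 94.4% of the 268 cells had no Cd74 UMI after thinning. Its H2-DMa level of 45.1 CPM was close to that of the late gate (47.4 CPM), although H2-Aa stood at 12.2 CPM. Free RNA may set a limit here. In 96 granule-gene-rich cells of the myeloid cluster, 95 of them from young replicate 1, Cd74 gave 48.0 CPM. Of these cells 4.17% had a UMI after thinning (median depth 15387 UMIs, against 2841 in cluster 4). They were taken for having under 10 Cd74 UMIs, so their low level is no independent measure of background. In young replicate 1 cluster 4 gave 95.2 CPM, and 86.5% of its 37 cells there had no Cd74 UMI after thinning. Whether the Cd74 of cluster 4 stood above background was not tested.

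Other genes of the pathway were taken from lists of 33 genes, of which 17 outside the gate genes were tested between the gates. Of these, 6 were called higher, 2 lower and 9 in neither direction, and their median log2 fold change was 0.48. Of all 3475 genes, 12.5% were called higher and 13.3% lower. The list of upstream transcription factors held most of the genes called higher, with 5 of its 6 tested genes called. A link of these changes to the class II rises was not tested. Spib, an ETS factor of B cells, had the largest change (3.07-fold, log2 fold change 1.62 ± 0.15 SE, edgeR adjusted p = 3.4e-13). Irf4 rose 1.69-fold, Irf8 1.51-fold, Pax5 1.51-fold and Ebf1 1.20-fold, all regulators of B-cell development, and Spi1, which encodes PU.1, was not called (adjusted p = 0.070).

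Of the lysosomal genes, Ifi30, a reductase that opens disulphide bonds of antigens, rose 1.51-fold (adjusted p = 0.021), and 4 of 5 tested were not called. None of the 3 promoter complex genes tested was called. H2-Ob, the beta chain of the DM inhibitor DO, fell (log2 fold change -0.74 ± 0.22, edgeR adjusted p = 0.0092). Mif, which encodes a ligand of the Cd74 protein, fell by 0.72 on the log2 scale (adjusted p = 0.00038). In dividing against non-dividing early-gated cells 3 of 17 pathway genes were called, all lower, where 14.2% of all genes were called in either direction, so the share is near the background. Ctss, the protease that makes the last cuts in the invariant chain, had a log2 fold change of -1.42 ± 0.35 (adjusted p = 0.0093), H2-Ob -1.37 ± 0.32 (adjusted p = 0.0060) and Ebf1 -0.63 ± 0.11 (adjusted p = 0.00043).

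The genes whose levels ran most like the mean of Cd74, H2-Aa, H2-Ab1 and H2-Eb1 were sought over 22 sums of a library and cluster, among 3076 genes. Ccr7, a chemokine receptor of lymphocytes and dendritic cells, came first (Pearson r = 0.86), then Ralgps2 (0.84), Sept11 (0.79), Fth1 (0.77), Scaf11 (0.76), Id2, Tiparp and Iqgap1 (0.76 each). Sums of 1 library share cells' depth and background, so these coefficients are a description. Of the other members, H2-DMb2 followed the mean (r = 0.78), H2-DMa less so (0.47), and H2-DMb1 did not (-0.17).

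In the myeloid cluster H2-DMa and H2-DMb1 were spread over many cells, while Cd74, H2-Aa and H2-Ab1 lay mostly in a few. The cluster, led by Prtn3, Elane, Ctsg and Mpo, genes of neutrophil precursor granules, held 185 cells. Counting UMIs without thinning, 11 of them with at least 10 Cd74 UMIs, a limit chosen after seeing the values, held 84.6% of the cluster's 765 Cd74 UMIs and 96.8% of its 252 H2-Aa UMIs. Of these 11 cells 7 came from young replicate 1, 1 from young replicate 3 and 3 from aged replicate 3. They had a median of 2 UMIs over the 13 neutrophil markers, against 36 in the other 174 cells. Markers of more than 1 cell type were present among them. The cell with most Cd74, at 123 UMIs, and another with 35 had 59 and 44 UMIs over the 12 dendritic markers, including Siglech and Bst2, and no H2-DMa UMI. Cd79a, a B-lineage gene, was seen in 5 of the 11 and in 86 of the other 174. Of the 11, the cell with 25 Cd74 UMIs held 14 of Cd79a and 5 of Ms4a1, and that with 85 held 8 and 1. The most Cd79a in a cell of the other 174 was 7 UMIs, at a depth of 21260 UMIs.

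The remaining 174 cells gave 60.2 CPM of Cd74 and 4.1 CPM of H2-Aa, but 162 CPM of H2-DMa and 40.3 CPM of H2-DMb1. H2-DMb2 did not share this, with 21 UMIs in the whole cluster (10.3 CPM), 11 of them in the 11 cells of high Cd74. H2-DMa was seen in 119 of these cells (68.4%), including 59 of the 96 with no Cd74 UMI. In young replicate 1, the source of 166 of them, H2-DMa was 162 CPM, against 43.8 in that library's non-dividing and 46.4 in its dividing B-lineage cells, while Cd74 was 60.5 CPM, against 790 and 396. At the fixed depth 23.8% of the whole cluster held H2-DMa (17.8 to 30.6), against 4.75% of late-gated B-lineage cells. Since these cells were taken for having under 10 Cd74 UMIs, their low Cd74 is no result, and over the whole cluster in young replicate 1 Cd74 stood at 261 CPM and H2-DMa at 175. Ciita gave 0 UMIs in the 185 cells, which bounds its level at 1.5 CPM (3 counts of the total).

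**Figure D5:**
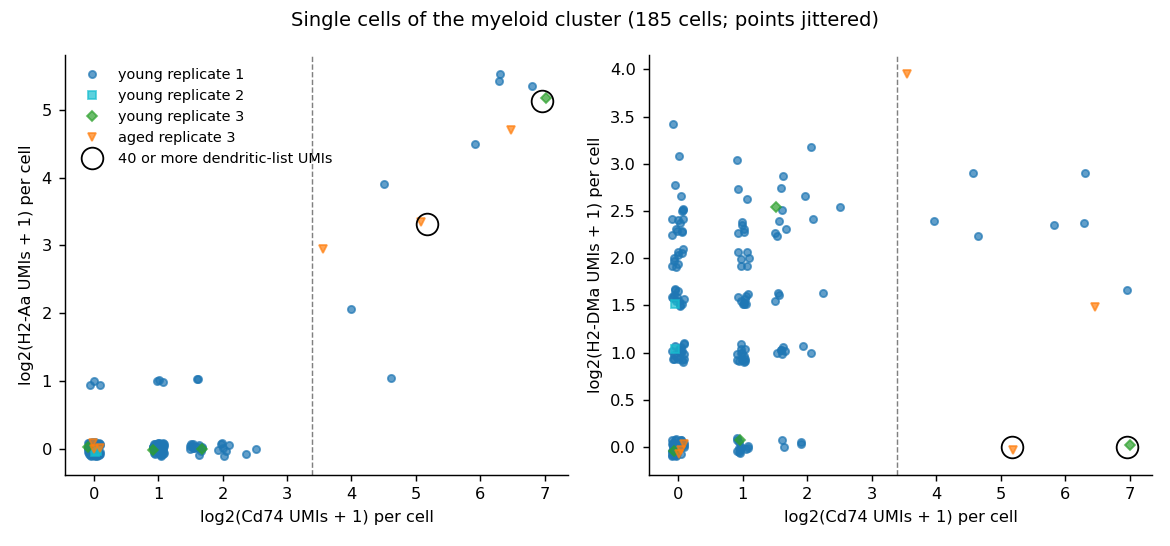
UMIs per cell of H2-Aa (left) and H2-DMa (right) against Cd74 in the 185 cells of the myeloid cluster, as log2(UMIs + 1) with small jitter, coloured by library. The dashed line marks 10 Cd74 UMIs; H2-Aa is seen almost wholly to its right and H2-DMa on both sides, and open circles mark the cells with 40 or more dendritic-list UMIs.

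The 23 endothelial-like cells, the type the sort was labelled for, held few class II transcripts. Cd74 gave 16 UMIs in 4 cells, all from young replicate 1, and 11 of the 16 were in a single cell. None of H2-DMa, H2-DMb1, H2-DMb2 and Ciita was detected, with 77685 UMIs in the cluster.

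Without a replicate block, no member was called between aged and young libraries in non-dividing, early-gated, late-gated or dividing B-lineage cells, and edgeR called 0% of all genes in each. Both aged libraries lay below the young range for 1 of 6 members tested in non-dividing cells, H2-DMa (3.74% of genes), and for 0 of 4 in the late gate (5.95% of genes) and 0 of 4 in the early gate (4.61% of genes). H2-DMa did not pass the filter in the late gate. Its aged values there, 7.7 and 45.2 CPM from 1 and 9 UMIs, also lay below the young 47.1 to 82.1. Of 6953 genes tested in non-dividing cells 1.28% had an unadjusted p under 0.05, and DESeq2 called 0. In these cells Cd74 was 1361 ± 510 CPM (SD, n = 3) in young and 954 ± 601 (n = 2) in aged libraries, and all 6 members tested had negative log2 fold changes, from -0.18 ± 0.39 for H2-Aa to -0.76 ± 0.38 for H2-Ab1 (edgeR adjusted p = 1.0 for each). The median over all genes was -0.02.

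For Cd74, H2-Aa and H2-Eb1 the lower aged means rested on aged replicate 2. The 5 libraries gave 790, 1772, 1522, 529 and 1379 CPM of Cd74 in non-dividing cells, so the first aged library lay below the young range and the second inside it. Without aged replicate 2 the log2 fold change of Cd74 was 0.00 and those of H2-Aa and H2-Eb1 turned positive (0.36 and 0.15). H2-Ab1, H2-DMa and H2-DMb2 remained negative with any 1 library left out, at -0.30, -0.30 and -0.19 or lower. H2-DMb2 was 20.9 ± 0.86 CPM in aged (SD, n = 2) and 30.1 ± 15.6 in young libraries (n = 3). In aged replicate 2 late-gated cells made up 20.6% of non-dividing cells, against 23.4% to 58.3% in the other libraries. When the 4 gate classes of each library were weighted alike, Cd74 was 581 CPM there and at 1026 to 1645 in the others. In that library 23 of the kept cells were marked as doublets, against 4 to 10 in the others, and its non-dividing cells held least of the dendritic list (52.1 CPM against 70.5 to 100, 4 of 12 markers detected over the libraries) and of the monocyte and macrophage list (30.5 against 34.4 to 70.6, 9 of 12 detected). Neutrophil markers, 12 of 13 detected, summed to 14.0 CPM, within the 1.7 to 240 of the others. Erythroid markers were higher in both aged libraries (190 and 170 CPM) than in the young (44.7 to 96.8), and bone-forming markers lower (5.1 and 1.3 against 6.6 to 137). The part of these measures in the result was not tested.

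Within the late gate the 2 aged libraries stood on opposite sides of the young ones in Cd74, at 1359 and 2765 CPM against 2208 to 2725. By replicate number, Cd74 was lower in aged than young replicate 2 (1359 against 2273) and higher in aged than young replicate 3 (2765 against 2208). The log2 fold change was -0.27 ± 0.34 (SE, edgeR adjusted p = 1.0), where 0% of 2437 genes were called and 2.05% had an unadjusted p under 0.05. H2-Ab1 gave 521 ± 80.1 CPM in young (SD, n = 3) and 351 ± 171 in aged libraries (n = 2), and H2-Aa 407 ± 180 and 433 ± 168, with log2 fold changes of -0.59 ± 0.36 and 0.07 ± 0.40. Early-gated cells gave a Cd74 log2 fold change of -0.56 ± 0.65, which was 0.19 without young replicate 3, the highest of the 5 in this gate. Of 4444 genes there, 1.82% had an unadjusted p under 0.05.

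Among dividing cells both aged libraries lay below the young range for 3 of 4 members tested, H2-Aa, H2-Ab1 and H2-Eb1, where 6.02% of 2907 genes did so. H2-Ab1 gave 351, 407 and 486 CPM in young and 167 and 331 in aged libraries, a log2 fold change of -0.79 ± 0.35 (unadjusted p = 0.041, edgeR adjusted p = 1.0). H2-Aa gave 180, 268 and 321 against 117 and 169, with -0.85 ± 0.35 (unadjusted p = 0.026, adjusted p = 1.0). Cd74 gave 396, 403 and 1059 against 43.3 and 461. Leaving out 1 library moved H2-Ab1 to between -1.44 (without aged replicate 3) and -0.35 (without aged replicate 2), and Cd74 was called lower without aged replicate 3 (-3.94, edgeR adjusted p = 0.021). The aged values rest on 23 and 36 cells, and no genes were called by edgeR, 3.03% had an unadjusted p under 0.05 and DESeq2 called 1.

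No other pathway gene was called with age in any of the 4 classes. In non-dividing cells, the 3 of smallest p among 26 tested were Cd83, which protects class II molecules from breakdown (log2 fold change -1.81 ± 0.64), Mif (-1.19 ± 0.57) and Irf4 (-0.58 ± 0.29), each with an edgeR adjusted p of 1.0.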

How the data were processed

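Per the labels' protocols, sorted cells were frozen, thawed and processed for 3′ end counting, with PCR cycles set for each sample. The authors deposited raw counts of UMIs for each gene in each barcode. The submitters' processing notes name Cell Ranger, build mm10, R 3.5.2, edgeR 3.24.3 and, last, DESeq2 1.22.2. How barcodes were selected, and which Cell Ranger version ran, is not given in the sources used. A reference gene table matched 27645 of the 27998 identifiers.

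Cells with at least 500 genes, at least 1000 UMIs and at most 10% mitochondrial UMIs were kept (2116 of 3384 barcodes). Clusters came from scanpy 1.11.5 (log-normalised counts, 2000 variable genes without 11 class II genes, 30 components, 15 neighbours) and leidenalg 0.10.2 at resolution 0.8. A cell with at least 2 of 10 cell cycle genes after thinning to 1000 UMIs counted as dividing. Scrublet in scanpy marked 49 doublets at an expected rate of 2%; they stayed in and were left out as an alternative.

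Sums of raw counts were formed for each class of cells in each library holding at least 10 of them, and tested with edgeR 4.0.16 in R 4.3.3 (quasi-likelihood test, TMM, filterByExpr, Benjamini-Hochberg adjusted p under 0.05 over all genes tested). The SE is the log2 fold change divided by the square root of F. Between gates the library was a block. Age fits used 3 young and 2 aged libraries. CPM intervals are exact Poisson and shares Clopper-Pearson, both at 95% and for counting error only. The procedure was tested on simulated counts. Of 2-fold changes the age fits recovered 9.78% in non-dividing, 23.9% in late-gated, 11.8% in early-gated and 14.8% in dividing cells. Most simulated age changes of that size were thus missed. Of 4-fold changes these fits recovered 72.6% to 88%. The fit between gates recovered 85.9% of 2-fold changes. Alternatives were DESeq2 1.42.0, other scaling, no filter, doublets left out, at least 1500 UMIs, stricter gates, a looser definition of dividing cells, a replicate block and leaving out each library. Named genes were the 8 members, pathway genes past the threshold (or the 3 of smallest p) and the 8 genes most alike in pattern. Members, lists and gates were chosen with earlier results of these data known, and the ratios and per-cell splits after seeing the values.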

Additional observations from a re-analysis of the deposited data

How the results depend on the processing

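The rises of Cd74, H2-Aa, H2-Ab1 and H2-Eb1 from early to late gate kept direction and call under every alternative in which they were tested, with log2 fold changes of 2.79 to 3.93, 2.06 to 3.35, 1.18 to 1.83 and 2.25 to 2.78. H2-DMa was not called and ranged from -0.10 to 0.34 with a library left out. Genes called between gates numbered 894, against 462 with DESeq2, 386 with no replicate block and 637 to 863 with a library left out. Between dividing and non-dividing cells 565 genes were called, against 341 with DESeq2, 362 with no replicate block, 319 with a gate of 2 UMIs and 277 to 565 with a library left out (277 without aged replicate 3). Cd74 was called lower in dividing cells without the filter on low counts (-0.85), with dividing cells taken from 1 cell cycle gene (-0.64) and without young replicate 1 (-1.21). H2-Ab1 was called higher with dividing cells taken from 1 cell cycle gene (0.70). Leaving out a library gave -0.18 to 0.47 for H2-Aa and -0.095 to 0.53 for H2-Ab1, and H2-DMa was -0.20 with DESeq2, -0.025 without TMM, -0.12 without the filter and -0.062 without doublets.

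With age, genes called without the filter on low counts numbered 36 in non-dividing, 3 in late-gated, 5 in early-gated and 10 in dividing cells, and DESeq2 called 1 in dividing cells. Leaving out a library gave 0 to 2 calls in the late gate and 0 to 4 in dividing cells. The replicate numbers join only 2 pairs of libraries, the labels give them no shared origin, and deviations correlated at 0.25 (replicate 2) and 0.20 (replicate 3) over 6953 genes. With the replicate block 17 genes were called in non-dividing, 6 in late-gated and 1 in dividing cells. Cd74 (-0.97, adjusted p = 0.00098) and H2-Ab1 (-0.96, adjusted p = 0.0041) were among those of the non-dividing cells, and the block turned H2-Eb1 in the late gate to 0.55 and H2-Aa in the early gate to 0.057. H2-Aa in the early gate was 0.016 with DESeq2. With at least 1500 UMIs per cell, late-gate Cd74 was 0.032 and H2-Eb1 0.026. With a library left out, H2-Aa ranged from -0.98 to 0.36 and H2-Eb1 from -1.11 to 0.15 in non-dividing cells. In the late gate Cd74 ranged from -0.94 to 0.18, H2-Aa from -0.47 to 0.49 and H2-Eb1 from -1.22 to 0.68. In the early gate Cd74 ranged from -1.34 to 0.19, H2-Aa from -1.06 to 0.66 and H2-DMa from -0.68 to 0.23. Cd74 in dividing cells was called lower without aged replicate 3 (-3.94, adjusted p = 0.021). Where a call or sign changed, the cause was not tested.

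The ratio of Cd74 to H2-Ab1 kept its direction under 9 alternatives between gates (mean log2 difference 1.60 to 2.48) and 8 for dividing cells (-2.21 to -1.22), all chosen after seeing the data. Shares of cells with a Cd74 UMI without thinning were 26.9% in the early gate, 55.0% in the late gate and 59.6% in dividing cells, against 13.6%, 43.0% and 26.9% with it. Depth limits Ciita, H2-DMb1 and H2-DMb2 most, with 12 to 88 UMIs each over all non-dividing B-lineage cells, and the aged dividing cells, of which there were 59.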
